A study of Caenorhabditis elegans with 6 samples.

Results

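The 3 related genes oma-1, oma-2 and moe-3 of Caenorhabditis elegans encode zinc-finger proteins of the CCCH class, and oma-1 was the gene targeted by RNA interference (RNAi) in the study. They were chosen by name and family, 3 of the 45510 genes in the tables, with the P0 results for oma-1 and moe-3 already known, so their levels are given as descriptions without tests. Small RNAs bound to the Argonaute WAGO-4 were precipitated from young adults and sequenced, with 1 library for each of 6 conditions. All animals carried WAGO-4 fused to 3xFLAG and GFP (3xFLAG::GFP::WAGO-4), were kept at 20 °C and were precipitated with the anti-FLAG M2 antibody. P0 animals were given oma-1 double-stranded RNA (dsRNA), and F1 and F3 are their descendants in later generations. HT115 animals, named after the bacterial strain commonly used to feed dsRNA to worms, are the library without oma-1 RNAi against which these 3 were set. A further library came from animals after lin-15b RNAi. It was set against HT115 and, over both strands, also against a library from untreated animals. No library is an input or an untagged control, so levels describe the precipitate. The labels also give growth notes that differ between libraries: embryos kept at several temperatures for HT115 and P0, larvae without food for F1, and larvae without food and ultraviolet light on embryos for F3. These notes on embryos and larvae do not match the young adult stage that the same labels give. With 1 library per condition, these notes, the library and the condition cannot be told apart.

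OMA-1 and OMA-2 are redundant, oocyte-enriched RNA-binding proteins: they bind the untranslated ends of maternal mRNAs and hold back their translation, and without both of them oocytes do not complete maturation. They are phosphorylated by the kinase MBK-2 and removed as the embryo begins to divide. In RNAi, Dicer cuts dsRNA into primary small RNAs of both strands, and RNA-dependent RNA polymerases then copy the targeted mRNA into antisense secondary small RNAs that Argonautes such as WAGO-4 carry. WAGO-4 is a cytoplasmic Argonaute of the germline that is needed for silencing to pass to offspring, and oma-1 is a common reporter gene for such inheritance.

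Each gene had a single transcript in the tables. In the Ensembl annotation of the genome build WBcel235, oma-1 (WBGene00003864, C09G9.6) lies on chromosome IV from 8888976 to 8890999 on the plus strand, with 6 exons and a transcript of 1801 bases. The paralog oma-2 (WBGene00003865, ZC513.6) lies on chromosome V from 8029439 to 8031214 on the plus strand, also with 6 exons, and its transcript has 1546 bases. On chromosome II from 13160415 to 13165733, minus strand, lies moe-3 (WBGene00003388, F32A11.6), with 8 exons and a transcript of 1437 bases. The introns of oma-1 measure 42 to 48 bases and those of oma-2 44 to 48, whereas those of moe-3 reach 1417 bases. No annotated gene overlaps oma-1 or oma-2, and 1 gene, F32A11.1, overlaps moe-3 by 48 bases on the other strand. How reads that match more than 1 of these relatives were assigned is not given in the sources used here, and the shared sequence was not measured, so a read of one member could have been counted for another.

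The gene-assigned reads numbered 8667735 to 11309227 per library. In the 5 libraries with strands kept apart, antisense reads made up 69.6% in P0, 55.6% in F1, 72.5% in F3, 69.98% after lin-15b RNAi and 77.8% on HT115. Levels are in CPM, read counts scaled to 1 common total in every library, with the antisense total of the library as divisor for antisense reads and the sense total for sense reads. Intervals are exact 95% intervals that cover counting error only. No molecular identifiers are described, so reads copied by PCR may make even these too narrow. Each library comes from whole animals, and fewer germ cells cannot be told apart from less small RNA per cell. The summed antisense level of marker genes of other tissues was low: 1.51 to 6.29 CPM for 31 major sperm protein genes, 2.88 to 12.3 CPM for 8 intestine genes and 13.8 to 56.1 CPM for 5 muscle genes. In the sense direction the sperm genes summed to 61.8 CPM in P0, 77.6 in F1, 493 in F3, 124.5 after lin-15b RNAi and 49.8 on HT115, and the intestine genes to between 42006 and 68082 CPM. The muscle genes summed to 3226 sense CPM in P0, 3956 in F1, 5509 in F3, 6980 after lin-15b RNAi and 3080.5 on HT115. Of the 31 sperm genes, 10 to 21 had no antisense read. The part of these transcripts in the levels below was not tested.

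Small RNAs antisense to oma-1 were most abundant in P0 and were lower in each later generation, while remaining above HT115. There were 8684 antisense oma-1 reads in P0, 1725 in F1, then 1443 in F3, and 694 after lin-15b RNAi, against 713 on HT115. Per kilobase of transcript, this is 799 CPM per kb in P0, 176 in F1, then 109.6 in F3, and 58.3 after lin-15b RNAi, against 53.6 on HT115. Ordered by antisense CPM per kb among 20220 protein-coding genes, oma-1 stood at place 34 in P0, 687 in F1, then 1623 in F3, against place 3723 on HT115. On HT115 it was thus far from the top of the order, and in P0 it was near it. The intervals of the CPM values do not overlap between any pair of P0 (1409.8 to 1470.5), F1 (302 to 332), F3 (187 to 208) and HT115 (89.5 to 103.8). The interval after lin-15b RNAi (97.4 to 113) overlaps that of HT115.

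**Figure D1:**
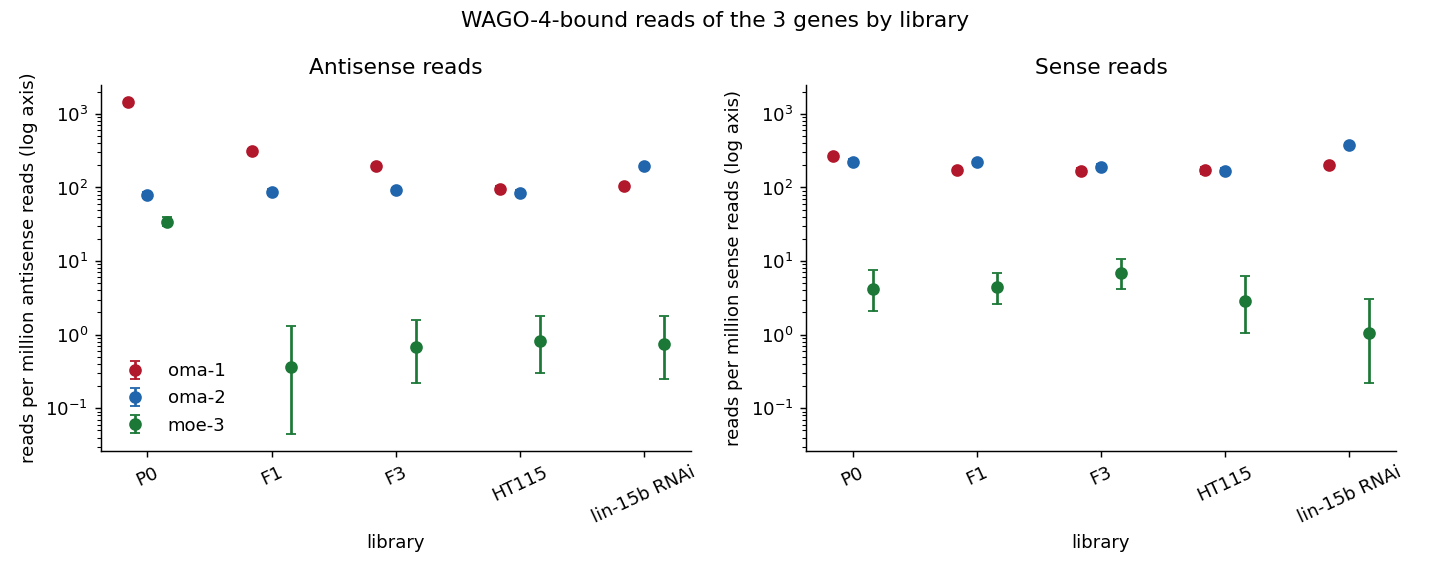
Antisense CPM (left, of the antisense total) and sense CPM (right, of the sense total) of oma-1, oma-2 and moe-3 on log axes, 1 point per library, with exact 95% Poisson intervals. Antisense oma-1 is highest in P0 and lower in F1 and F3, above HT115 in each, and moe-3 is high only in the P0 antisense panel. In the sense panel no gene has a P0 step of similar size, while oma-2 is 2.27-fold above HT115 after lin-15b RNAi.

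The level above HT115 gives the course of the added signal. Antisense oma-1 exceeded HT115 by 1343 CPM in P0 (1306 to 1381, from the ends of both intervals), by 220.1 CPM in F1 (198 to 242) and by 101 CPM in F3 (83.6 to 118). The F1 excess was 16.4% of that in P0, and the F3 excess was 45.9% of that in F1 and 7.52% of that in P0. From P0 to F1 the signal thus dropped more, in proportion, than over the 2 generations from F1 to F3. The F1 library had the lowest antisense share, 55.6% of its reads, so this course depends on the divisor. Divided by all reads, F3 stood at a log2 ratio of -0.30 to F1, in place of -0.68.

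Reads of oma-1 were most strongly antisense in P0. Of all oma-1 reads, 92.5% were antisense in P0 (exact binomial interval 91.9 to 93.0), 69.8% in F1 (68.0 to 71.6), then 75.4% in F3 (73.4 to 77.3), and 55.0% after lin-15b RNAi (52.2 to 57.8), against 66.4% on HT115 (63.5 to 69.2). On HT115, oma-1 was therefore less antisense than most targets: 12.2% of 5954 protein-coding genes with at least 200 reads had a lower share, and their median was 89.7%. In P0 81.7% of such genes lay below oma-1, in F1 45.1% and in F3 26.0%. The median share of such genes was itself 72.5% in F1, below the 86.3% of F3.

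Sense reads of oma-1 differed less from HT115 in P0 than antisense reads did. They numbered 707 in P0, 746 in F1, then 470 in F3, and 567 after lin-15b RNAi, against 361 on HT115. Relative to the sense total, the level was 1.57-fold higher in P0 than on HT115 (1.38 to 1.78), and stood at 1.00 in F1 (0.883 to 1.14), then 0.992 in F3 (0.863 to 1.14). The 14.9-fold ratio of antisense reads in P0 (13.8 to 16.1) thus had no counterpart of similar size among sense reads. With the sense total as divisor, no member with 25 sense CPM or more reached 2-fold in the 3 generations, where 0.333% of genes did so in P0, 0.639% in F1, then 3.01% in F3. These sense ratios depend on the divisor, since the sense total of F1 was large. Divided by all reads, sense oma-1 stood at log2 ratios to HT115 of 1.10 in P0, 1.00 in F1, then 0.30 in F3, past 2-fold in P0 and at about 2-fold in F1.

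**Figure D2:**
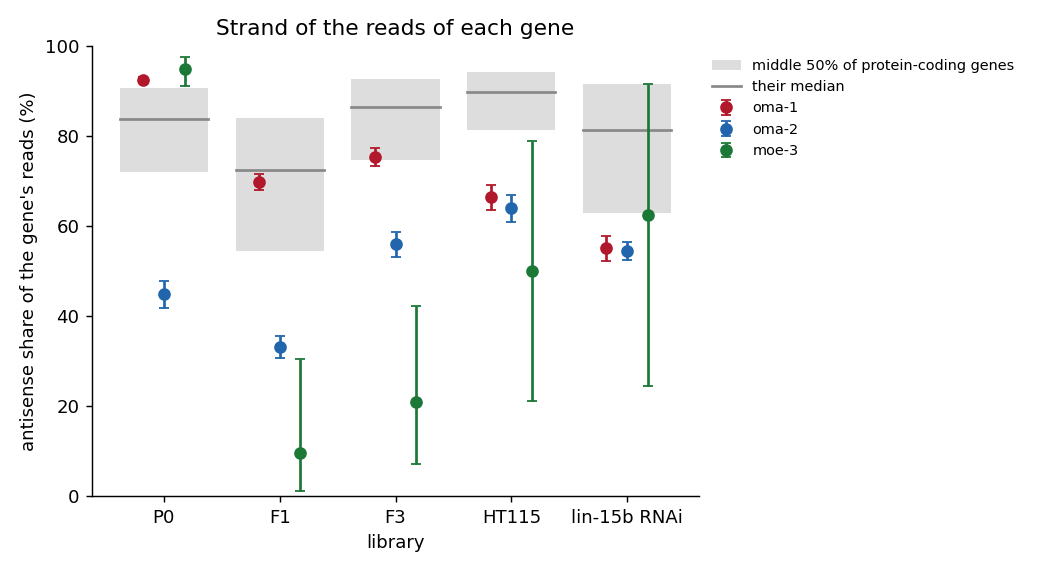
Antisense share of the reads of oma-1, oma-2 and moe-3 in each library, in percent, with exact 95% binomial intervals; grey boxes span the middle 50% of protein-coding genes with at least 200 reads and the grey line is their median. In P0 oma-1 and moe-3 lie above the grey box, at 92.5% and 94.95%, while oma-2 lies below it in every library shown.

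Small RNAs against oma-2, which acts redundantly with oma-1 in oocytes, did not follow those against oma-1. Antisense oma-2 reads numbered 479 in P0, 469 in F1, then 674 in F3, and 1292 after lin-15b RNAi, against 627 on HT115. Per length this was 51.4 CPM per kb in P0, 55.7 in F1, then 59.7 in F3, against 54.9 on HT115, so that HT115 held oma-1 (53.6) and oma-2 at like levels. The folds over HT115 were 0.936 in P0 (0.830 to 1.06), 1.01 in F1 (0.898 to 1.15), then 1.09 in F3 (0.974 to 1.21), and each interval includes 1. Divided by all reads, the log2 ratios were -0.26 in P0, -0.46 in F1, then 0.02 in F3. The oma-2 level differed more from HT115 after lin-15b RNAi than in P0, F1 or F3. After lin-15b RNAi antisense oma-2 stood at 126.5 CPM per kb, 2.31-fold above HT115 (2.09 to 2.54), where 9.75% of measured genes were at least 2-fold higher and 18.7% at least 2-fold lower. The untreated library was also above HT115. Over both strands oma-2 had 163 CPM per kb after lin-15b RNAi and 124 in the untreated library, against 66.8 on HT115. On that scale lin-15b RNAi stood at 1.31-fold to the untreated library. The part of lin-15b RNAi in the 2.31-fold was not tested.

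Reads of oma-2 were less antisense in P0, F1 and F3 than on HT115, whereas those of oma-1 were more antisense in P0 and F3. For oma-1 in F1 the interval overlapped that of HT115. Antisense reads made up 44.8% of oma-2 reads in P0 (41.8 to 47.8), 33.1% in F1 (30.6 to 35.6), then 55.9% in F3 (53.1 to 58.8), and 54.5% after lin-15b RNAi (52.4 to 56.5), against 63.9% on HT115 (60.8 to 66.9). The antisense share of the whole library was also lower in P0, F1 and F3 than on HT115. Only 10.3% of protein-coding genes in P0, 13.9% in F1, then 13.5% in F3 had a lower share, against 11.2% on HT115, so its place among genes stayed low throughout. Sense oma-2 reads numbered 590 in P0, 950 in F1, then 531 in F3, against 354 on HT115. The sense folds over HT115 were 1.33 in P0 (1.17 to 1.52), 1.302 in F1 (1.15 to 1.48), then 1.14 in F3 (0.997 to 1.31). Divided by all reads, they were log2 ratios of 0.87 in P0, 1.38 in F1, then 0.50 in F3, so that oma-2 passed 2-fold in F1 on that scale. With 1080 sense reads, the library after lin-15b RNAi stood 2.27-fold above HT115 (2.01 to 2.57), as did 14.4% of genes at 2-fold or more. The untreated library gives no sense level to set beside it.

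Setting oma-1 against oma-2 inside each library removes the library total from the comparison. Antisense oma-1 reads per kb were 15.6 times those of oma-2 in P0 (14.2 to 17.1), 3.16 times in F1 (2.85 to 3.50), then 1.84 times in F3 (1.68 to 2.02), against 0.976 times on HT115 (0.876 to 1.09). The order P0, F1, F3, HT115 therefore holds without any scaling, with intervals that do not overlap. For sense reads per kb the quotient was 1.03 in P0 (0.921 to 1.15), 0.674 in F1 (0.612 to 0.743), then 0.760 in F3 (0.670 to 0.862), against 0.875 on HT115 (0.754 to 1.02). Of these 4 libraries F1 had the lowest sense quotient, with an interval that lies below that of HT115 and overlaps that of F3. After lin-15b RNAi the quotient was lower than on HT115 on each scale. It was 0.461 (0.420 to 0.506) for antisense and 0.451 (0.406 to 0.499) for sense reads. Over both strands it was 0.456 after lin-15b RNAi (0.426 to 0.489) and 0.479 in the untreated library (0.447 to 0.515), against 0.940 on HT115 (0.861 to 1.03).

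**Figure D3:**
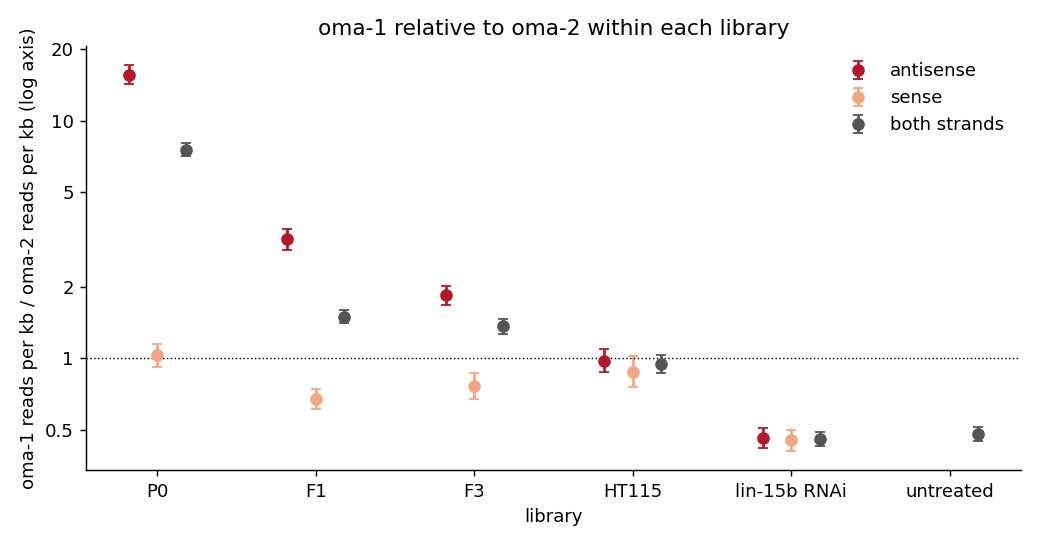
Reads per kb of oma-1 divided by reads per kb of oma-2 within each library, on a log axis, for antisense, sense and both strands, with exact conditional 95% intervals. The antisense quotients are 15.6 in P0, 3.16 in F1, 1.84 in F3 and 0.976 on HT115, and the lin-15b RNAi and untreated libraries lie together below 0.5.

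The untreated library, with a single count column taken here as both strands together, allows only both-strand levels. Over both strands oma-1 had 134 CPM after lin-15b RNAi (126 to 141) and 107 in the untreated library (101 to 113). The paralog oma-2 had 251 CPM after lin-15b RNAi (241 to 262) and 192 in the untreated library (184 to 200.3). Both genes were therefore modestly higher after lin-15b RNAi, 1.25-fold for oma-1 (1.15 to 1.35) and 1.31-fold for oma-2 (1.23 to 1.39). Neither reached 2-fold, as 6.31% of measured genes did. The strand mix of the libraries differed: in the untreated library the median both-strand level was 1.08 times that after lin-15b RNAi for strongly antisense genes and 0.450 times for strongly sense genes. As only 55.0% of oma-1 reads and 54.5% of oma-2 reads were antisense after lin-15b RNAi, these both-strand ratios can move with that mix, and its part was not tested. Over both strands oma-2 had 123 CPM in P0, 145 in F1, 119.6 in F3 and 103 on HT115. All 4 values are below those after lin-15b RNAi and in the untreated library. On HT115 oma-2 stood at 0.544 times the untreated level (0.504 to 0.587), close to the 2-fold line that 9.77% of genes passed downwards. For oma-1 HT115 stood at 1.07 times the untreated level (0.982 to 1.16).

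The relative moe-3 had almost no small RNAs except in P0. There were 207 antisense moe-3 reads in P0, 2 in F1, then 5 in F3, and 5 after lin-15b RNAi, against 6 on HT115. This is 23.9 CPM per kb in P0, 0.255 in F1, then 0.476 in F3, against 0.565 on HT115. For the P0 CPM of moe-3 the 95% interval was 29.8 to 39.3. It lies above those of F1 (0.0444 to 1.33), F3 (0.222 to 1.60) and HT115 (0.298 to 1.77). Each of these intervals covers the counting error of 1 library only. As moe-3 was chosen with its P0 level known, this gap is no finding. The fold over HT115 in P0 was 42.3 (19.1 to 117), a wide interval because it rests on 6 reads. Of the moe-3 reads in P0, 94.95% were antisense (91.2 to 97.5), a share like that of oma-1 (92.5%). The sense reads numbered 11 in P0, 19 in F1, then 19 in F3, and 3 after lin-15b RNAi, against 6 on HT115, too few to order these libraries. Over both strands the untreated library held 17 reads, or 1.503 CPM (0.876 to 2.41).

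In P0 the antisense reads of moe-3 amounted to 2.38% of those of oma-1 (2.07 to 2.74). In F1 they were 0.116% of them (0.0140 to 0.419) and in F3 0.347% (0.112 to 0.810), against 0.842% on HT115 (0.308 to 1.84). In F1 the level of oma-1 was still 3.28-fold above HT115, whereas moe-3 had 2 reads where 4.42 were expected at the HT115 level. These percentages are of all oma-1 reads, those present on HT115 without oma-1 RNAi included. Reads antisense to moe-3 in the 48 overlapping bases would count as sense reads of F32A11.1. That gene had a sense level of 83.1 CPM in P0 (72.4 to 94.8), 71.4 in F1 (63.6 to 79.8), then 72.7 in F3 (63.0 to 83.4), against 70.7 on HT115 (59.8 to 82.98). Its P0 level is the highest of these, but all 4 intervals overlap.

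With antisense reads set against HT115, oma-1 and moe-3 stood apart from all other measured genes in P0, and oma-1 moved towards the bulk afterwards. A gene counted as measured with at least 25 CPM in the higher library of the pair. In P0 31 of 5866 measured genes (0.528%) were at least 2-fold above HT115, and 2 (0.0341%) were at least 4-fold above it, namely moe-3 and oma-1. The next protein-coding gene was F39C12.1 at 2.49-fold (2.23 to 2.79). With 0.812 CPM on HT115, moe-3 counted as measured only through its P0 level, so its large ratio was fixed in advance. In F1 1.5% of 5815 genes were at least 2-fold higher; oma-1 was at place 35 of all genes and first among the 5560 protein-coding ones, with pals-26 at 3.26-fold (2.62 to 4.06) next to its 3.28-fold (3.01 to 3.59). Those intervals overlap. In F3 0.328% of 5788 genes, or 19, were at least 2-fold higher, though 39 were with TMM scaling and 35 with median-of-ratios scaling. There oma-1 at 2.05-fold (1.87 to 2.24) was at place 10 among 5576 protein-coding genes, between R07E4.5 (2.10) and R04E5.8 (2.03). Over both strands, and with all reads as the divisor, the F3 ratio of oma-1 was under 2-fold, at log2 values of 0.75 and 0.93. Over both strands against HT115, oma-1 was at place 233 of 6275 genes in F1 and 188 of 6129 in F3. The places also depended on the reference. Over both strands against the untreated library, moe-3 was at place 33 and oma-1 at place 62 of 6266 genes in P0. On that scale oma-1 was at place 883 of 6303 in F1 and 1578 of 6199 in F3. Of the members, oma-2 passed 2-fold in none of these generations and moe-3 was measured in P0 alone. These shares served to place members that were chosen with such ratios known, and they are no support for the choice.

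Antisense oma-1 was lower in F1 than in P0, and lower in F3 than in F1. F1 over P0, antisense oma-1 stood at 0.220 (0.209 to 0.232). Of 5874 genes 0.766% were at least 2-fold lower, oma-1 and moe-3 being 2 of them. Here moe-3 counted as measured only through its known P0 level, and oma-1 was also chosen with its P0 level known. The place of either gene among them is therefore no finding. F3 over F1, the oma-1 ratio was 0.624 (0.581 to 0.669), which is short of the 2-fold that 1.08% of genes reached downwards. For oma-2 the same ratios were 1.08 (0.952 to 1.23) and 1.07 (0.951 to 1.21).

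**Figure D4:**
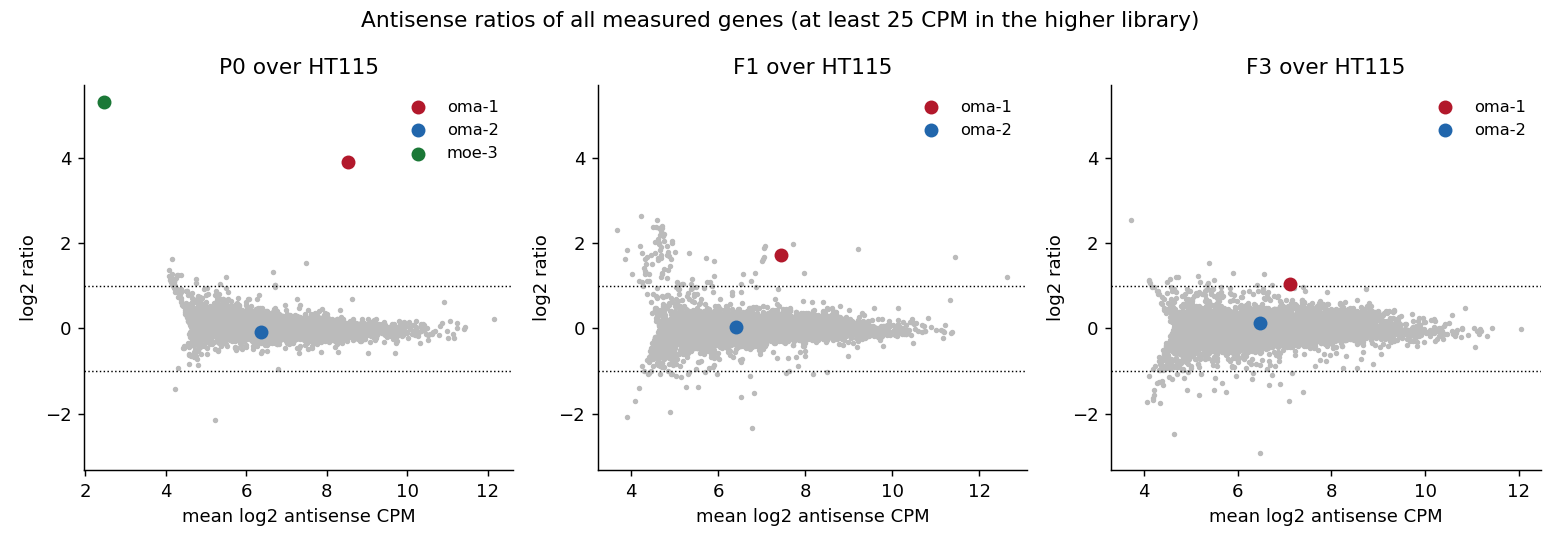
Log2 ratio of antisense CPM over HT115 against mean log2 antisense CPM for every measured gene in P0, F1 and F3 (1 grey point per gene, dotted lines at 2-fold), with oma-1, oma-2 and, where measured, moe-3 in colour. In P0 moe-3 and oma-1 lie above all other points, and in F3 oma-1 lies at the upper edge of the grey cloud.

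The genes whose pattern over the 5 stranded libraries came closest to each member were found by the distance between centred log2(CPM + 1) profiles, as a description of 5 libraries. For oma-1 the nearest of 5938 genes was moe-3, at a distance of 2.03 where the median gene was at 3.06. The gene moe-3 entered this comparison through its P0 level alone, and the P0 values of both genes were known when they were chosen, so this place is no finding. It was followed by the small nucleolar RNA gene K07C10.2 (2.11) and the noncoding gene T19C4.17 (2.22). For moe-3 the nearest was in turn oma-1, followed by the glutamate receptor gene glr-2 (2.69) and T07F8.1 (2.76), where the median gene was at 3.94. The nearest genes to oma-2 were far closer: emc-5 (0.0558), the translation initiation factor gene eif-2A (0.0803) and F56C9.3 (0.0849), against a median of 1.39. For eif-2A the levels were 246 CPM in P0, 271 in F1, 272 in F3, 614 after lin-15b RNAi and 264 on HT115, the same flat course with a higher lin-15b library as oma-2.

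Small RNAs against genes that work with OMA proteins, and against other CCCH zinc-finger genes, were described from 5 lists. Of their 52 genes, 44 were measured, and 0 of the 44 were at least 2-fold above HT115 in P0, F1 or F3, where 0.528%, 1.5% and 0.328% of all measured genes were. For 44 genes these counts are near the background, and nothing is read from them about the lists. At least 2-fold lower were 0 of them in P0 and 0 in F1, where 0.0341% and 0.43% of all measured genes were, and 1 in F3, where 0.587% were. That gene was gsa-1, which encodes the stimulatory G protein subunit through which sperm signals trigger oocyte maturation; it had 407 reads in F3 against 857 on HT115, or 0.480 times the HT115 level (0.426 to 0.541). In P0 gsa-1 stood at 0.924 and in F1 at 0.600. Its F3 log2 ratio of -1.06 is closer to the 2-fold line than the 0.11 by which TMM scaling raised all F3 ratios.

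All 14 genes for OMA ribonucleoprotein partners were measured, with a median log2 ratio of -0.08 in P0, -0.13 in F1, then -0.16 in F3, where the medians of all genes were 0.02, -0.03 and -0.01. Their largest P0 ratio was that of gld-1, a translational repressor of the germline, at 1.08 (1.01 to 1.14), and the smallest that of etr-1 at 0.817 (0.725 to 0.920). The maternal RNA-binding gene spn-4 stood at 0.893 in P0, 1.06 in F1, then 1.17 in F3. Of the 6 mRNAs that OMA proteins hold back, 5 were measured, with medians of 0.01 in P0, 0.12 in F1, then 0.03 in F3. Among them zif-1, whose product marks germline proteins for destruction in somatic cells of the embryo, stood at 1.09 in P0, 0.879 in F1, then 0.987 in F3. The meiotic katanin gene mei-1 stood at 0.966, 1.08 and 1.10 in the same order, and cdc-25.3 was too low to be measured.

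For the 10 kinases and partners of the oocyte-to-embryo transition the medians were -0.02 in P0, -0.09 in F1, then -0.11 in F3. The kinase gene mbk-2 stood at 1.06 in P0, 0.979 in F1, then 1.08 in F3. The lowest ratios were those of egg-4 (0.892 in P0, 0.855 in F1, then 0.779 in F3), which anchors MBK-2 with its near-identical copy egg-5, so that reads of these genes may be split between them. Of 12 genes of oocyte maturation signalling 9 were measured, with medians of -0.04 in P0, -0.05 in F1, then -0.06 in F3. Of the 10 other CCCH zinc-finger genes 6 were measured, with medians of -0.09 in P0, -0.21 in F1, then -0.20 in F3. These included the embryonic fate regulators pos-1 (0.980 in P0, 0.730 in F1, then 0.901 in F3) and mex-5 (0.925, 0.854 and 0.834) and the germline repressor pie-1 (0.917, 1.10 and 0.893). The 4 low CCCH genes had few antisense reads in P0. There ccch-1 had 11 reads against 12 on HT115, ccch-5 had 13 against 8, ccch-2 had 1 against 1, and dct-13 had 0 against 0. The folds were 1.12 (0.449 to 2.78) for ccch-1 and 1.99 (0.765 to 5.54) for ccch-5, under the moe-3 interval (19.1 to 117). With so few reads, ccch-2 and dct-13 cannot be set against moe-3, which was chosen with its P0 level known. After lin-15b RNAi, 3 of the 44 genes were at least 2-fold above HT115, among them inx-14 at 18.1-fold, and 7 were at least 2-fold below. These are 6.82% and 15.9% of the 44, beside 9.75% and 18.7% of all measured genes.

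**Figure D5:**
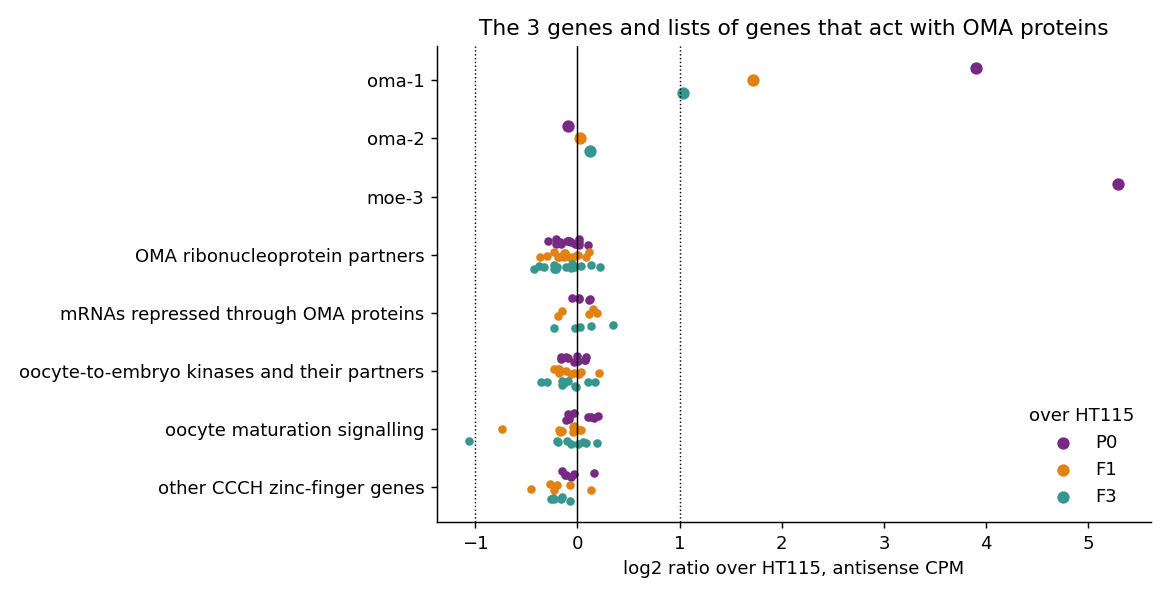
Log2 ratio of antisense CPM over HT115 for the 3 genes and for the measured members of 5 gene lists, with P0, F1 and F3 in separate colours and dotted lines at 2-fold. The list members lie between -1.06 and 0.34, whereas oma-1 lies at 3.90, 1.71 and 1.03 and moe-3 at 5.29 in P0.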

How the data were processed

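The deposited tables give read counts per annotated transcript and strand for 6 libraries, 1 per condition. The submitters' processing notes name Bowtie2 as the aligner. Its version, the build and annotation behind the counts, and the program that counted them, are not stated in any source used here. The first count column was read as sense and the second as antisense, since 0.202% to 0.417% of microRNA reads were in the second. The untreated library has 1 column. It was taken as both strands together, which the labels do not state: relative to both strands after lin-15b RNAi, its median level was 1.08 times for 883 genes with at least 95% antisense reads there and 0.450 times for 408 genes with at most 5%. Per library 3 lines without a gene (at most 0.000296% of reads) were left out. The lin-15b RNAi and untreated libraries have counts for 45162 genes, and P0, F1, F3 and HT115 for 45510. The part of this in comparisons between them was not tested.

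Counts were summed per gene and divided by the strand's total per library. Intervals are exact Poisson, binomial or conditional binomial at 95%. Log2 ratios had 0.5 added to each count. Annotation came from Ensembl (WBcel235), by gene ID. The calculations ran in Python 3.11.15, with scipy 1.17.1, and R 4.3.3, with edgeR 4.0.16 for TMM factors only. They were run on simulated counts with counting error only, which checks the calculation and not the spread between libraries. With 1 library per condition there is no p-value.

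The members, gene lists and alternatives were chosen with earlier results of these data known. Genes named are the members, the members of the lists (with the highest and lowest ratio), the 3 genes nearest to each member in pattern and overlapping genes. F39C12.1, pals-26, R07E4.5, R04E5.8 and the genes singled out within the lists were chosen after their values were seen. A planned search for runs shared between transcripts was not made, as no sequence was used here.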

Additional observations from a re-analysis of the deposited data

How the results depend on the processing

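Scaling by median of ratios or TMM, totals without the 20 most abundant genes and oma-1, and 5 added reads kept every antisense log2 ratio of the 3 genes over HT115 inside its counting interval; sense ratios were not run under these settings. TMM raised all F3 ratios by 0.11. With both strands the log2 ratios of oma-1 over HT115 stood at 3.26 in P0, 1.16 in F1, then 0.75 in F3 and those of oma-2 at 0.26 in P0 and 0.49 in F1; F1 over P0 was -2.10 and F3 over F1 -0.41 for oma-1. With the untreated library as reference, over both strands, oma-1 stood at 3.35, 1.25 and 0.84 in P0, F1 and F3, oma-2 at -0.62, -0.39 and -0.67, and moe-3 at 4.04 in P0. So oma-1 in F3 was under 2-fold in both settings. Division of antisense reads by all reads, chosen after seeing the data, gave 3.74 in P0, 1.23 in F1, then 0.93 in F3 for oma-1, -0.46 in F1 for oma-2, and for oma-1 -2.51 for F1 over P0 and -0.30 for F3 over F1. The cause was not tested.

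Counts of genes at least 2-fold from HT115 depended on the minimum level. With none they were 2376 higher and 6180 lower in P0, 2442 and 6587 in F1, and 2530 and 6253 in F3. With 100 CPM they were 5 and 0 in P0, 16 and 7 in F1, and 4 and 9 in F3. TMM gave 39 higher genes in F3, and median-of-ratios scaling 35 in F3 and 13 lower in F1. No paired analysis was possible because each condition has 1 library. At this depth moe-3 outside P0, with 2 to 6 antisense reads, allows no order of libraries.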
